A study of Mus musculus with 23 samples.

Results

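Spleen B cells were examined in mice that carried 1 of 2 amino acid changes at the same tyrosine of the signal transducer STAT5B. Members were chosen by measured UMIs (unique molecular identifiers, each standing for 1 captured RNA molecule). A barcode was selected on at least 500 detected genes, at most 10% of UMIs in mitochondrial genes, at least 3 UMIs of Cd79a, at least 1 of Ms4a1, at most 1 over Cd3d, Cd3e and Cd3g together, and fewer than 5 of Xbp1. The gate held 4407 cells of the 20500 spleen barcodes and of 139967 barcodes in the 16 expression libraries of the series. Of these cells, 1564 came from wild type (WT), 2103 from Y665H and 740 from Y665F. The spleens came from C57BL/6 mice (C57BL/6N in the study's methods) at 2 months of age, and the edited alleles replaced tyrosine Y665 of STAT5B with histidine or phenylalanine in the germ line, so that every cell type carried them. CD45+ cells of 3 mice were combined into 1 library per genotype, per the study's description, and the labels of the spleen libraries do not give the zygosity of the mutants. No difference between spleen genotypes therefore has a replicate check, and no p-value is given for one. Lymph node libraries of WT, heterozygous Y665F and homozygous Y665F mice, also at 2 months of age, are read beside the spleen. Fewer cells of a type and less RNA per cell cannot be told apart in the summed values.

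The alleles are shown first, because both amino acid changes fall in 1 codon. The codon of Y665 lies in exon 16 of the 19 exons of Stat5b transcript 201, on the minus strand of chromosome 11 at 100787291 to 100787293 in GRCm38. Both mutants were made with 1 guide, given here with the protospacer-adjacent motif (PAM) in capitals. Per the study's methods, Y665H was made by base editing and Y665F with a repair donor. The methods also describe a silent C-to-G change in that donor that removes the PAM. The stretch below does not show it. The donor as listed in the study's supplement still holds CCT, the complement of the PAM, just before that stretch. The reference coding sequence and the matching stretch of the Y665F repair donor follow, with that codon in capitals.
Y665 guide: tgaggtaattcaggtcccccAGG
Stat5b reference: ggggacctgaatTACctcatatatgtg
Y665F donor: ggggacctgaatTTTctcatatatgtg

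B cells mature in the spleen from transitional cells into follicular cells, which recirculate through lymphoid organs, and marginal zone cells, which stay beside the blood sinuses. They sense antigen through the B cell receptor, whose signal passes through CD79A and CD79B to the kinases SYK and BTK. They depend on the cytokine BAFF, present antigen on MHC class II and respond to interferons. STAT5A and STAT5B act downstream of cytokine receptors such as those of the common gamma chain family, and are best known in the B lineage for their part in early development under interleukin 7.

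The gated cells carried the genes that define B cells. After thinning every cell to 2000 UMIs, Cd79b, which the gate did not use and which pairs with Cd79a in the B cell receptor, had a UMI in 96.9% of WT, 95.3% of Y665H and 94.7% of Y665F B cells, against 4.2%, 5.1% and 2.9% of spleen T cells (at least 2 UMIs over the Cd3 genes and none of Cd79a). Median depth was 3935, 3960 and 3862.5 UMIs per B cell in WT, Y665H and Y665F, and 6148, 5916 and 7445 per T cell. At the edge of the gate, 29, 31 and 12 cells had exactly 3 Cd79a UMIs in WT, Y665H and Y665F, and 9, 17 and 7 barcodes just outside had 2. A further 55, 81 and 27 barcodes met every other criterion but had no Ms4a1 UMI. No barcode of a B cell was shared between libraries, and the libraries as a whole shared 12, 7 and 18 barcodes in pairs.

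The gate took 23.2% of WT barcodes that passed the quality limits (1564 of 6743, exact 95% binomial interval 22.2 to 24.2%). It took 26.7% in Y665H (2103 of 7876, 25.7 to 27.7%) and 14.96% in Y665F (740 of 4947, 13.98 to 15.98%). The share was thus lowest in Y665F and highest in Y665H, and none of the 3 counting intervals overlapped. All intervals here cover counting error alone and leave out differences between mice, sorts and libraries. Thinning every barcode to 2000 UMIs before gating left 20.02%, 22.8% and 12.3% in WT, Y665H and Y665F, in the same order. The gate was applied within CD45+ cells, so its share moves with every other cell type in the library. T cells were 3972 of 6743 barcodes in WT, 3683 of 7876 in Y665H and 3446 of 4947 in Y665F, the reverse order of the B cell share. The genotype of each library rests on its label, since the counts do not read the edited codon, and the share is of barcodes passing quality and not of cells per spleen. The other barcodes of Y665F carried the neutrophil list (11 genes) at a summed 30908 CPM (UMIs summed over the cells of a library and scaled to a common total), against 1828 in WT and 16862 in Y665H.

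**Figure D1:**
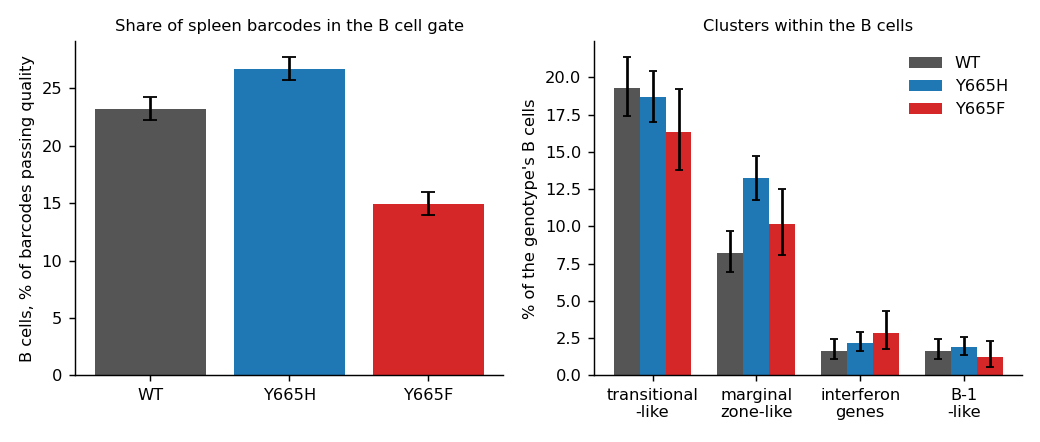
Left, share of spleen barcodes passing quality that fell in the B cell gate, in percent, for 1 pooled library per genotype. Right, share of each genotype's B cells in the 4 clusters described below; bars are shares and error lines exact 95% binomial intervals, and the gate share was 23.2% in WT, 26.7% in Y665H and 14.96% in Y665F.

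RNA of other cells was present in the libraries at unequal levels, and these values stand before the gene results because they touch them. S100a8, a neutrophil alarmin, was at 30.9 CPM in WT B cells, 523 in Y665H and 307 in Y665F. After thinning, 2.4% of WT, 25.5% of Y665H and 21.4% of Y665F B cells had an S100a8 UMI, close to the 2.5%, 23.6% and 19.96% of T cells in the same libraries. The 10 highest cells held 69.3% of S100a8 UMIs in WT, 63.2% in Y665H and 62.5% in Y665F. Over the whole neutrophil list the summed level in B cells was 110 CPM in WT, 1406 in Y665H and 842 in Y665F, with none of its 11 genes at 0 in any library. Without clusters 8 and 9, described below, it was 54.9, 439 and 400 CPM in that order. Hbb-bs, a beta globin of red cells, was at 5.88, 1047 and 2.20 CPM in WT, Y665H and Y665F, and the 10 highest cells held 90.4% of its UMIs in Y665H. The natural killer (NK) list of 9 genes summed to 246, 205 and 65.7 CPM, with 1 of its genes at 0 in Y665F. Without clusters 8 and 9 it summed to 69.0 CPM in WT, 58.1 in Y665H and 65.7 in Y665F. The T cell list of 12 genes summed to 131, 139 and 76.7 CPM, in cells that the gate had limited to 1 UMI over Cd3d, Cd3e and Cd3g. Neutrophil and NK genes led clusters 8 and 9 below and hemoglobin genes led cluster 5, and counts of differing genes are given without clusters 8 and 9 and over barcodes free of T, NK and neutrophil list UMIs. The part of red cell RNA was not tested.

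Graph clustering of the 4407 cells, run without immunoglobulin, ribosomal, mitochondrial and hemoglobin genes, gave 9 clusters. Cluster 3 (816 cells) had 5 of 8 transitional markers at 1.5-fold or more over the other cells and was called transitional-like. Cluster 4 (482 cells) had 6 of 10 marginal zone markers and was led by genes that included Cr2, the complement receptor CD21, the sphingosine receptor S1pr3 and Dtx1, a Notch target. Cluster 7 (75 cells) had 5 of 6 B-1 markers, with Zbtb32 and Ighg3 among its leading genes. It also had 4 of 10 marginal zone and 3 of 6 age-associated markers raised, so the name B-1-like is loose. Cluster 6 (93 cells) had 23 of 24 interferon-induced genes raised and was led by Ifit3, Slfn5 and Ifit2. Clusters 1 (1365 cells) and 2 (1330 cells) had 0 and 2 follicular markers raised and stayed unnamed. Cluster 5 (193 cells) mixed cell cycle, germinal center and hemoglobin genes and also stayed unnamed. Cluster 8 (34 cells, median 7745.5 UMIs) had 9 of 11 neutrophil markers raised, with 8 of 11 monocyte and macrophage and 6 of 7 dendritic markers. Cluster 9 (19 cells, median 8091 UMIs) had all 9 NK markers and 8 of 12 T cell markers raised. The genes that define a cluster were used to form it and are a description.

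For 4 of these clusters, none of the 10 leading genes that passed the level filter differed 2-fold between genotypes, and their shares are given side by side. The marginal zone-like cluster held 8.25% of WT B cells (129 cells, exact 95% interval 6.93 to 9.72%), 13.2% of Y665H (278 cells, 11.8 to 14.7%) and 10.1% of Y665F (75 cells, 8.06 to 12.5%). It was largest in Y665H, where the interval lay above that of WT, and the Y665F interval overlapped both. This cluster had no matching cluster at resolution 1.0 or after doublet removal, where the best overlap was 46.9% and 28.2% of the joined cells. Those clusterings held a small cluster with all 10 marginal zone markers raised, at 1.21%, 1.47% and 0.946% of WT, Y665H and Y665F at resolution 1.0 and at 1.49%, 1.72% and 1.23% after doublet removal, with overlapping intervals. The higher share in Y665H therefore depends on how the cells were divided. The transitional-like cluster held 19.3% of WT, 18.7% of Y665H and 16.4% of Y665F B cells, with overlapping intervals. After removal of doublet-scored barcodes the matching cluster held 23.2% in WT (21.1 to 25.4%), 20.4% in Y665H and 17.7% in Y665F (15.02 to 20.7%), so that WT and Y665F no longer overlapped. At resolution 1.0 the matching cluster held 13.3% in WT, 12.1% in Y665H and 11.6% in Y665F, with overlapping intervals. The interferon-gene cluster held 1.66%, 2.19% and 2.84% in WT, Y665H and Y665F (26, 46 and 21 cells), again with overlapping intervals. At resolution 1.0 the matching cluster was larger and held 2.69% (1.94 to 3.61%), 3.99% (3.20 to 4.92%) and 7.57% (5.77 to 9.71%), and there the Y665F interval lay above both others. That match shared only 51.1% of the joined cells. After doublet removal the match was closer, at 82.9%. It held 1.88% in WT, 2.46% in Y665H and 2.72% in Y665F, with overlapping intervals. The B-1-like cluster held 1.66%, 1.90% and 1.22% (26, 40 and 9 cells). Sizes of the other clusters are not compared, because genes that lead them differed 2-fold between the libraries.

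Immunoglobulin genes were read per cell as a check on maturation that the gate did not use. Among cells with at least 3 UMIs of a heavy chain constant gene, IgM or IgD transcripts (Ighm, Ighd) were the most abundant class in 99.7% of WT, 99.4% of Y665H and 99.6% of Y665F cells. IgG transcripts led in 1 of 1561 WT cells, 11 of 2102 Y665H cells (0.523%, exact 95% interval 0.262 to 0.934%) and 2 of 740 Y665F cells. Class-switched cells were therefore rare in all 3 gates. Lambda light chain UMIs outnumbered kappa in 12.1% of WT cells (10.5 to 13.8%), 10.8% of Y665H cells (9.51 to 12.2%) and 12.3% of Y665F cells (10.0 to 14.9%), with overlapping intervals. Ighd outnumbered Ighm in 8.80%, 9.18% and 7.19% of cells of WT, Y665H and Y665F, and these intervals overlapped too.

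UMIs were summed over the B cells of each library, 6628201 in WT, 9100389 in Y665H and 3180098 in Y665F, and 7638 genes with a mean of at least 10 CPM were compared as log2 ratios with 1 CPM added. Y665F and Y665H share the WT library, so their differences from it are not independent. In Y665F, 11 genes were at least 2-fold higher than WT (0.144% of those compared) and 26 at least 2-fold lower (0.34%). In Y665H, 20 were higher (0.262%) and 1 was lower (0.0131%). Of the higher genes, 6 of 11 in Y665F and 11 of 20 in Y665H belonged to the lists of other cell types. Others, such as Hspa1b, Slpi and Ifitm1, passed the level filter only through the mutants, so the counts of higher genes are a description. Without clusters 8 and 9, 8 genes were higher and 22 lower in Y665F, and 12 were higher and 2 lower in Y665H. Over barcodes with no UMI of the T, NK and neutrophil lists, which left 613 WT, 205 Y665H and 97 Y665F cells, 126 were higher and 463 lower in Y665F, and 52 higher and 131 lower in Y665H. Of the 37 Y665F and 21 Y665H genes past 2-fold over all gated cells, 13 and 5 stayed past it there in the same direction. The median over all 7638 genes was -0.11 in Y665F and -0.02 in Y665H on the log2 scale, with 5206 genes below 0 in Y665F and 4190 in Y665H. TMM scaling moved the Y665F median to -0.01 and its split to 12 higher and 13 lower, so values below are read against the all-gene median. A second count took genes at 1.5-fold or more whose exact Poisson 95% intervals did not overlap, which were 44 higher (0.576%) and 144 lower (1.89%) in Y665F, and 49 higher (0.642%) and 17 lower (0.223%) in Y665H.

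**Figure D2:**
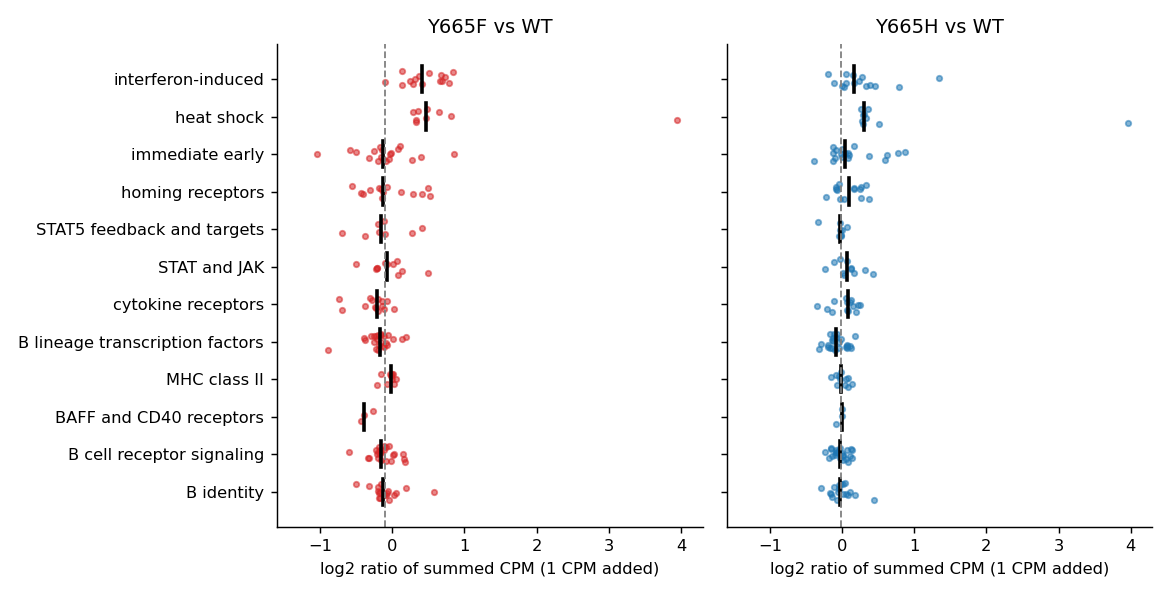
Log2 ratio to WT of each compared gene (points) in 12 gene lists, for Y665F (left) and Y665H (right), with the list median as a black bar and the median of all 7638 genes as a dashed line. In Y665F the interferon-induced and heat shock medians, 0.41 and 0.46, lay to the right of the line at -0.11, and the BAFF and CD40 receptor median of -0.39 to the left.

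Some interferon-induced genes were higher in Y665F than in WT B cells. Of 24 listed genes, 15 were compared, and 14 of these had a ratio above 0 in Y665F, with a median of 0.41 against -0.11 over all genes, of which 2432 of 7638 were above 0. In Y665H 13 were above 0, against 3448 of all genes, and the median was 0.16. At 1.5-fold with separate intervals, 6 were higher in Y665F (0.576% of all genes) and 2 in Y665H (0.642% of all genes), and 0 were lower in either. The Y665F median was 0.39 without clusters 8 and 9. In the other spleen barcodes the same list had a median of -0.10 in Y665F and 0.26 in Y665H.

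Ly6a, which encodes the surface protein SCA-1, was at 221 CPM in WT (exact Poisson 95% interval 210 to 232), 246 in Y665H (236 to 256) and 395 in Y665F (373 to 417). Y665F was the highest, with a log2 ratio to WT of 0.84, against 0.15 in Y665H and 0.05 for Y665F in the other spleen barcodes. The gene lies on chromosome 15 at 74994877 to 74998031 (GRCm38, minus strand). After thinning, 26.3% of WT, 30.4% of Y665H and 43.3% of Y665F B cells had a Ly6a UMI. In T cells, which also express the gene, the shares were 17.9%, 26.2% and 19.6%, so the 2 cell types ordered the genotypes differently.

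Ifi27l2a, an interferon-induced mitochondrial protein gene (chromosome 12, 103442167 to 103443680), was at 411 CPM in WT (396 to 427), 426 in Y665H (413 to 440) and 666 in Y665F (638 to 695). WT and Y665H overlapped, and Y665F was higher by 0.70 on the log2 scale. An Ifi27l2a UMI was found in 39.0%, 38.4% and 54.0% of thinned B cells of WT, Y665H and Y665F, and in 46.3%, 47.9% and 50.7% of T cells. Zbp1, a sensor of Z-form nucleic acid, was at 26.6, 32.5 and 42.8 CPM in that order, and Ifi213, a gene of the interferon-inducible PYHIN family, at 34.4, 40.8 and 55.7 CPM. In both genes the Y665F interval lay above that of WT, and Y665H lay between. Isg15, a ubiquitin-like modifier, was low, at 10.1 CPM in WT, 18.1 in Y665H and 18.2 in Y665F, so both mutants were above WT. Ifitm3, which blocks viral entry and is also abundant in myeloid cells, was at 10.3, 27.5 and 17.6 CPM, and its Y665H ratio of 1.34 became 0.75 without clusters 8 and 9. Stat2, a transducer of type I interferon signals, was at 53.4 CPM in WT and 49.2 in Y665H, and its ratio in Y665F was -0.09, with overlapping intervals.

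Ly6a and Ifi27l2a were next read within clusters, since a sum over all cells also depends on the mix of subsets. Ly6a in cluster 1 was at 250, 247 and 483 CPM in WT, Y665H and Y665F, in cluster 2 at 216, 206 and 354, and in the transitional-like cluster at 82.4, 94.9 and 155. In each of these Y665F was the highest and its interval lay apart from that of WT. In the marginal zone-like cluster Ly6a was at 375, 415 and 439 CPM, with the intervals of WT and Y665F overlapping. Ifi27l2a in the transitional-like cluster was at 501, 638 and 1137 CPM, and in the marginal zone-like cluster at 258, 280 and 482. Y665F was highest for Ifi27l2a in these clusters as well as in cluster 1 (313, 326 and 552 CPM) and cluster 2 (389, 376 and 506 CPM). In cluster 5 Ly6a was at 222, 215 and 251 CPM and Ifi27l2a at 425, 281 and 407 CPM, and the intervals of WT and Y665F overlapped for both genes, as they did in cluster 6.

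**Figure D3:**
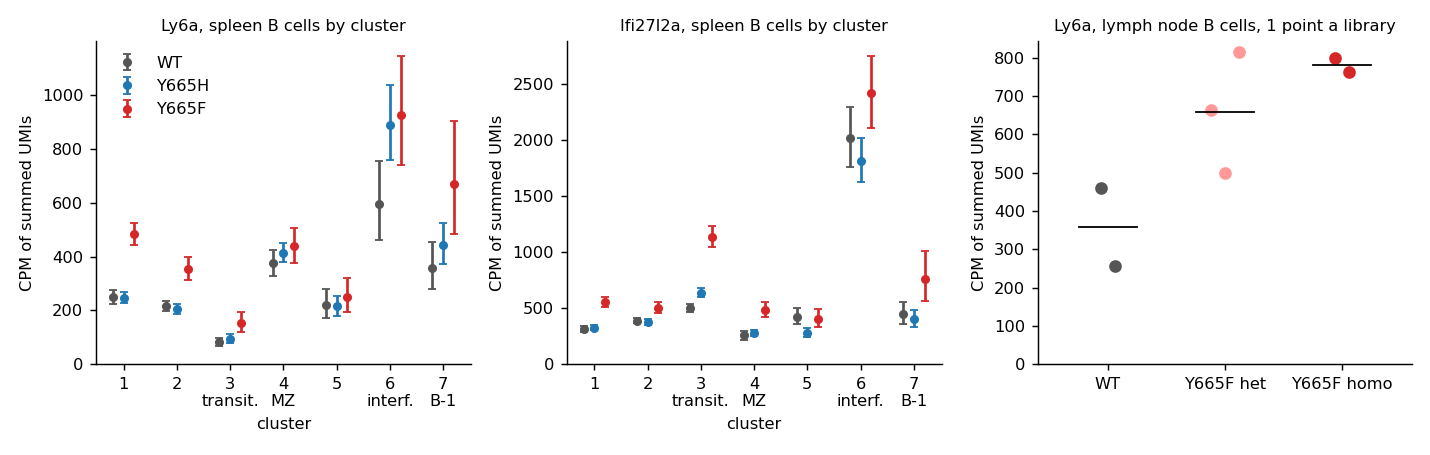
Left and middle, CPM of Ly6a and Ifi27l2a in WT, Y665H and Y665F spleen B cells within 7 clusters, with exact Poisson 95% intervals; right, CPM of Ly6a in B cells of each lymph node library (points) with the group mean (line). Y665F lies clearly above WT in clusters 1 to 3 for both genes, the intervals overlap in clusters 4, 5 and 6 for Ly6a and in clusters 5 and 6 for Ifi27l2a, the B-1-like cluster 7 has both genes higher in Y665F with intervals apart on 9 cells, and the lymph node WT points (460 and 258) lie below every Y665F point.

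The promoters of 2 of these genes are shown with a sequence feature common to genes that respond to interferon. The list was made of genes known for that response. A high share of matches thus follows from the choice and does not bear on levels in these cells. The 250 bases before the annotated start were searched on both strands for GAAA followed after any 2 bases by a second GAAA, a core form of the interferon-stimulated response element, in RefSeq promoters of GRCm38.p6. Of the 24 listed genes, 16 had a promoter in this set, and 10 of these (62.5%) held a match, against 936 of 27025 genes in all (3.46%). Ly6a, Ifi27l2a and Zbp1 had none in the set and were not searched. The matches included Stat2, which was not higher in Y665F. A STAT dimer motif, TTCNNNGAA, was found in 4 of the 16 (25%) and in 8.13% of all genes. Capitals mark matches to the first motif. The Isg15 window spans chr4:156200819-156201068 and the Ifi213 window chr1:173599273-173599522, both on the minus strand. A match describes letters and not a bound site.
Isg15 promoter: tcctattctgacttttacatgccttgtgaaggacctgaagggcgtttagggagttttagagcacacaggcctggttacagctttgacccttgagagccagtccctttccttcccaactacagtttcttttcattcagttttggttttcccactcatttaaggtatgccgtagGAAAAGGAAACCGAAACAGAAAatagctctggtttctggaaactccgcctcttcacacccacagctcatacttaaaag
Ifi213 promoter: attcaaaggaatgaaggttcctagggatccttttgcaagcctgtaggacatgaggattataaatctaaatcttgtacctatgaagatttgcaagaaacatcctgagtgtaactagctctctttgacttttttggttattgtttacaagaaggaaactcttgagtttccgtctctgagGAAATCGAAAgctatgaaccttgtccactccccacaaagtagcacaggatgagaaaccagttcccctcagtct

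Heat shock genes had ratios above 0 in both mutants. All 9 compared genes of 12 listed lay above 0, with medians of 0.46 in Y665F and 0.31 in Y665H, and 3 of 9 in Y665F and 1 of 9 in Y665H were 1.5-fold higher with intervals apart, against 0.576% and 0.642% of all genes. Hspa1b was the 1 gene in Y665H and passed the level filter only through the mutants, so these counts are a description. Mitochondrial genes took 4.05% of B cell UMIs in WT, 3.85% in Y665H and 4.90% in Y665F, and Gm42418, a transcript that overlaps ribosomal RNA, 1.55%, 1.14% and 3.21%. Their part was not tested. The list also lay above 0 in the other spleen barcodes, with medians of 0.28 and 0.23. Hspa1b, an inducible HSP70 chaperone, was at 1.81 CPM in WT (0.935 to 3.16), 43.0 in Y665H (38.8 to 47.4) and 42.1 in Y665F (35.3 to 49.9). It had 12 UMIs in WT against 391 and 134 in the mutants, and the nearly identical neighbour Hspa1a makes the assignment of its reads uncertain. Its log2 ratio in the other spleen barcodes was 3.20 in Y665H and 3.01 in Y665F, so the other cells of these libraries showed it too. Dnaja1, an HSP70 co-chaperone, was at 247, 306 and 387 CPM in WT, Y665H and Y665F, and Hsph1, another co-chaperone, at 38.5, 47.3 and 68.2 CPM. For both genes Y665F was highest.

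A few genes of B cell survival and receptor signaling were lower in Y665F, by less than 2-fold, among them Tnfrsf13c, Tnfrsf13b and Btk. Tnfrsf13c, the BAFF receptor that sustains mature B cells, was at 344 CPM in WT (330 to 359), 344 in Y665H (332 to 356) and 255 in Y665F (238 to 273). WT and Y665H could not be told apart, and Y665F was lower by a log2 ratio of -0.43. Tnfrsf13b, the related receptor TACI, was at 278, 277 and 211 CPM, the same order. Cd40, the receptor for T cell help, was at 59.1, 55.6 and 49.1 CPM with overlapping intervals. The median of these 3 compared genes, of 6 listed, was -0.39 in Y665F and -0.00 in Y665H, and 0 of them passed 1.5-fold.

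Btk, the kinase that carries the B cell receptor signal to phospholipase C, was at 169 CPM in WT (159 to 179), 149 in Y665H (141 to 157) and 111 in Y665F (99.4 to 123). The 3 intervals were apart, with ratios of -0.60 in Y665F and -0.18 in Y665H. Over the 23 genes of the receptor signaling list, all compared, the median was -0.16 in Y665F, close to the all-gene -0.11, and -0.03 in Y665H. Only Btk of this list passed 1.5-fold with separate intervals, and it did so in Y665F, where 1.89% of all genes were lower by this measure. Its Y665F ratio lay close to the 1.5-fold line, and TMM scaling raises Y665F ratios slightly. Syk (427, 412 and 381 CPM), Lyn (388, 366 and 334 CPM) and Ptprc, the CD45 gene (1325, 1299 and 1052 CPM), were also lowest in Y665F. None of them passed 1.5-fold with intervals apart. In Y665F 18 of the 23 listed genes lay below 0, against 5206 of all 7638 genes. Malt1 (386, 388 and 430 CPM) was highest there, so the list held ratios of both signs.

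**Figure D4:**
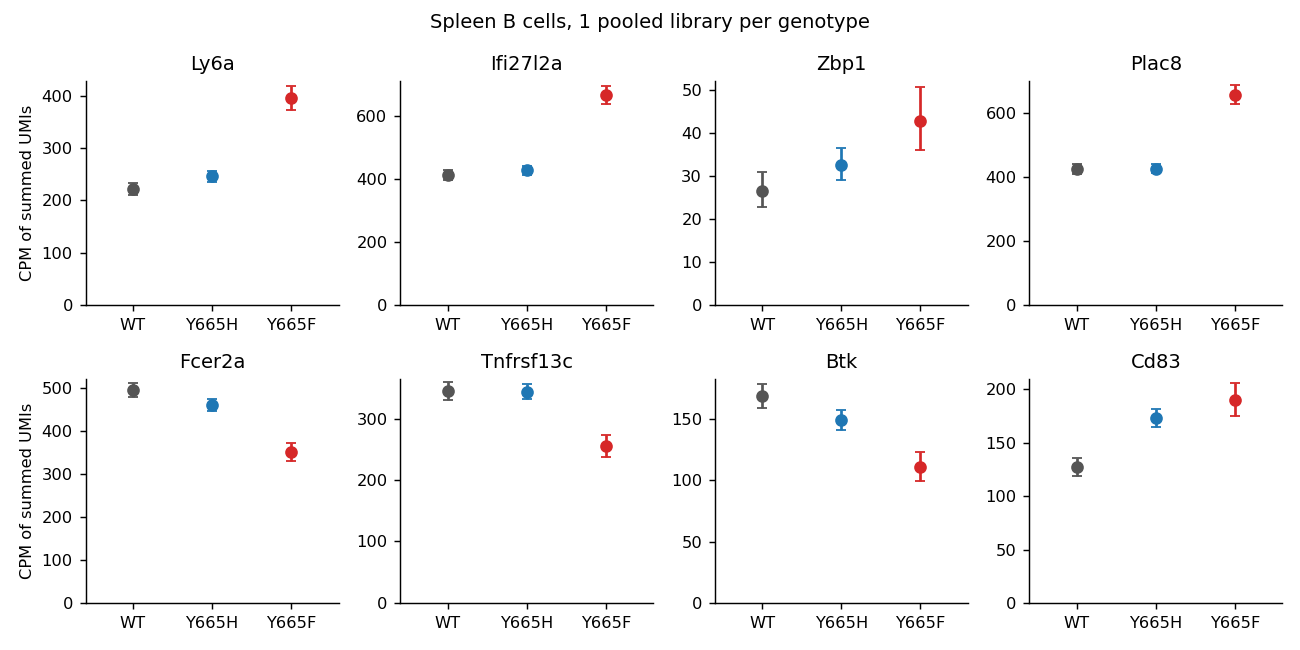
CPM of 8 genes in spleen B cells of WT, Y665H and Y665F, as summed UMIs of 1 pooled library each with exact Poisson 95% intervals; every axis starts at 0. Ly6a, Ifi27l2a, Zbp1 and Plac8 are highest and Fcer2a, Tnfrsf13c and Btk lowest in Y665F, and Cd83 is above WT in both mutants (127, 173 and 190 CPM).

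Surface and subset genes lay on both sides of WT. Fcer2a, the low-affinity IgE receptor CD23 of follicular cells (chromosome 8, 3681737 to 3694175), was at 494 CPM in WT (477 to 511), 458 in Y665H (445 to 473) and 351 in Y665F (330 to 372). Its intervals were all apart, in the order WT, Y665H, Y665F, and the log2 ratio of Y665F was -0.49. After thinning it had a UMI in 55.1%, 52.8% and 45.1% of B cells and in at most 0.5% of T cells. Within the marginal zone-like cluster it was at 489, 478 and 330 CPM, close to the level over all B cells, although marginal zone cells are known for low CD23, so that cluster goes against its name in this gene, and within cluster 1 at 570, 543 and 423 CPM. Plac8, a cysteine-rich gene of the marginal zone list, was at 425 CPM in WT, 426 in Y665H and 657 in Y665F. In T cells 8.9%, 11.2% and 23.2% of cells had a Plac8 UMI, so its level was higher in Y665F T cells as well. Cr2 was at 337, 362 and 302 CPM, lowest in Y665F. The follicular list as a whole (8 of 8 compared) had medians of -0.10 in Y665F and -0.04 in Y665H. The marginal zone list (6 of 10 compared) had medians of 0.02 in Y665F and 0.04 in Y665H, with 3 genes above and 3 below 0 in Y665F. Plac8 was its 1 gene higher in Y665F at 1.5-fold with intervals apart, against 0.576% of all genes.

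Ccr7, the receptor that draws B cells to the T cell zone, was at 116 CPM in WT (108 to 124), 150 in Y665H (143 to 159) and 164 in Y665F (150 to 179). Cd83, an activation-linked surface protein, was at 127, 173 and 190 CPM, and Cxcr4, the CXCL12 receptor, at 89.2, 107 and 128 CPM. In these 3 genes both mutants were above WT with intervals apart. S1pr4, a sphingosine receptor, was at 89.5, 76.4 and 60.4 CPM and ran the other way. After thinning, the intervals of the WT and Y665H shares of cells with a UMI overlapped for Ccr7 and Cxcr4. Within clusters, Cd83 was higher in Y665F than in WT in clusters 1, 2 and 4. In cluster 5 it was lower, at 337 against 492 CPM, with intervals apart. Of the 14 compared homing receptors 5 were above 0 and 9 below in Y665F, with a median of -0.13, near the split of all genes (5206 of 7638 below 0), and 0 passed 1.5-fold in either direction.

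Immediate early genes, which respond quickly to receptor signals, lay on both sides of WT. Of 19 compared, 5 were above 0 and 14 below in Y665F (median -0.13), and 12 above and 7 below in Y665H (median 0.05). Over all 7638 genes 5206 were below 0 in Y665F, so the Y665F split was near that of all genes, and 3448 were above 0 in Y665H. At 1.5-fold with intervals apart 4 of 19 were higher in Y665H, against 0.642% of all genes, and 0 were lower. Egr1, a zinc finger factor, was at 62.0, 58.0 and 29.6 CPM in WT, Y665H and Y665F, and was the 1 gene of the list past 2-fold in Y665F, where 0.34% of all genes were lower. Its log2 ratio of -1.04 lay close to the 2-fold line, and TMM scaling raises Y665F ratios slightly. Zfp36, which promotes decay of cytokine messages, was lowest in Y665F (218, 200 and 145 CPM), as was Junb (306, 316 and 215 CPM). Myc, the growth regulator, was highest in Y665F (30.5, 39.8 and 56.0 CPM). In Y665H, Fos was at 134 CPM against 87.1 in WT and 73.0 in Y665F, and its log2 ratio of 0.62 became 0.40 without clusters 8 and 9. The other 3 were Jun (181, 273 and 238 CPM in WT, Y665H and Y665F), the phosphatase gene Dusp1 (24.6, 45.9 and 29.9 CPM) and the orphan receptor gene Nr4a1 (18.0, 31.3 and 17.3 CPM). The Dusp1 ratio of 0.87 in Y665H likewise became 0.40 without clusters 8 and 9.

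The STAT and JAK genes and the STAT5 target list had medians near WT, with single genes on either side. The 11 STAT and JAK genes, all compared, ran from -0.50 to 0.50 in Y665F with a median of -0.08, and had a median of 0.07 in Y665H. Stat5b itself was at 45.7 CPM in WT (40.7 to 51.2), 38.7 in Y665H (34.7 to 42.9) and 32.1 in Y665F (26.2 to 38.9). It was lowest in Y665F, with an interval below that of WT, and its ratio of -0.50 was matched by -0.51 in the other spleen barcodes. A UMI count does not show which base stands at the edited codon, so the level of Stat5b does not check the edit. Stat5a was at 15.8, 17.9 and 13.5 CPM with overlapping intervals. Cish, the feedback inhibitor that STAT5 induces in T cells, had 7, 8 and 5 UMIs in WT, Y665H and Y665F, so a difference was not detectable at this depth. Of 15 listed STAT5 feedback and target genes 8 were compared, and their median was -0.15 in Y665F and -0.02 in Y665H. Ccnd2, which encodes cyclin D2, was higher in Y665F (110, 108 and 147 CPM), and Lta, the lymphotoxin gene, was lower there (24.4, 24.2 and 14.8 CPM). Of the 14 compared cytokine receptors 13 were below 0 in Y665F (median -0.21) and 4 in Y665H (median 0.08), none of them past 1.5-fold with intervals apart, against 5206 and 4190 of all 7638 genes below 0.

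MHC class II genes were close to the WT level in both mutants. All 11 were compared, with ratios of -0.21 to 0.06 in Y665F and -0.15 to 0.13 in Y665H, and medians of -0.01 in both. Cd74, the invariant chain that guides class II assembly, was at 10778 CPM in WT, 11161 in Y665H and 10215 in Y665F, and H2-Aa at 4017, 3817 and 4016. The class II list took 2.28%, 2.32% and 2.22% of B cell UMIs in WT, Y665H and Y665F. In the other spleen barcodes its median ratio was -1.30 in Y665F and 0.43 in Y665H. B identity genes (18 of 18 compared) had medians of -0.13 in Y665F and -0.03 in Y665H. The gate selected cells on Cd79a and Ms4a1, so these medians describe the gated cells and do not check the gate. Lineage transcription factors (24 of 24) had medians of -0.17 and -0.09, with Pax5 at 614, 637 and 539 CPM. In Y665F 21 of the 24 lay below 0, against 5206 of all 7638 genes, with a lowest ratio of -0.89. At 1.5-fold with intervals apart 1 of them was lower there, against 1.89% of all genes. Toll-like receptor genes (8 of 11 compared) had medians of -0.08 and 0.03, and BCL2 family survival genes (10 of 16) of 0.06 and 0.08.

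Cell cycle genes were low in all 3 libraries. Of 14 S phase genes 10 were compared, with medians of 0.04 in Y665F and 0.02 in Y665H. Their Y665F ratios ran from -0.99 to 0.33, and 1 was lower at 1.5-fold with intervals apart, against 1.89% of all genes. Of 14 G2/M genes 3 were compared, with medians of 0.25 and 0.14. Top2a, a topoisomerase of dividing cells and the G2/M gene past 2-fold in Y665F (0.144% of all genes), passed the level filter only through the mutants. It was at 8.30, 11.9 and 17.6 CPM in WT, Y665H and Y665F, with a log2 ratio of 1.001 in Y665F B cells and 1.63 in the other Y665F barcodes. Mki67 had a UMI in 0.7%, 0.5% and 0.5% of thinned B cells of WT, Y665H and Y665F.

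Genes past 2-fold outside the lists of other cells were few. Igha, the IgA heavy chain constant gene on chromosome 12 (113254830 to 113260236), was at 108 CPM in WT (99.8 to 116), 85.4 in Y665H (79.5 to 91.6) and 29.2 in Y665F (23.6 to 35.8). Y665F was lowest by a log2 ratio of -1.84. After thinning to 2000 UMIs, 16.9% of WT, 15.9% of Y665H and 4.8% of Y665F B cells had an Igha UMI, against 12.6%, 14.0% and 3.4% of T cells, which do not make IgA. The other lower genes named by the rule for Y665F were Helq, a DNA helicase gene (13.9, 13.6 and 5.03 CPM in WT, Y665H and Y665F), Rgl1, a Ral exchange factor gene (26.6, 19.1 and 10.7 CPM), Gm10062, Klf10, Rftn2, Camkmt, Mir142hg, Faah and Zfp607a. Rgl1 and Helq were lowest in Y665F, and their ratios in its other barcodes were -0.71 and -0.79. Mir142hg, the host transcript of a blood-lineage microRNA, was below WT in both mutants (47.7, 28.0 and 21.1 CPM), with -1.10 in the other Y665F barcodes.

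Higher genes in Y665F were Hspa1b, Ifitm1, Slpi, Top2a and Gm42418. Of these, Hspa1b, Ifitm1, Slpi and Top2a passed the level filter only through the mutants, so naming them is a description. The same holds for Hspa1b, Ifitm1 and Slpi in Y665H. The 2 Y665F cells of the neutrophil-gene cluster 8 held 25 of the 36 Slpi UMIs and 50 of the 61 Ifitm1 UMIs, and after doublet removal the ratios were -0.35 for Slpi and 0.92 for Ifitm1. Gm42418, which overlaps ribosomal RNA sequence, was at 15529 CPM in WT, 11406 in Y665H and 32105 in Y665F, with ratios of 1.05 in B cells and 0.97 in the other barcodes. In Y665H the higher genes were Hspa1b, Ifitm2, Ifitm1, Slpi, Il1b, Cebpb, Wfdc17, Alox5ap and Ifitm3, and all of them were also higher in the other barcodes of that library, by 2.17 to 3.43 on the log2 scale. Without clusters 8 and 9, Wfdc17 had a ratio of 0.56 and Cebpb of 1.07, from 1.46 and 1.70. Crisp3, a secreted cysteine-rich protein gene, was the 1 lower gene in Y665H, at 11.3 CPM in WT, 2.42 in Y665H and 17.9 in Y665F. Its ratio in the other Y665H barcodes was -0.16.

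**Figure D5:**
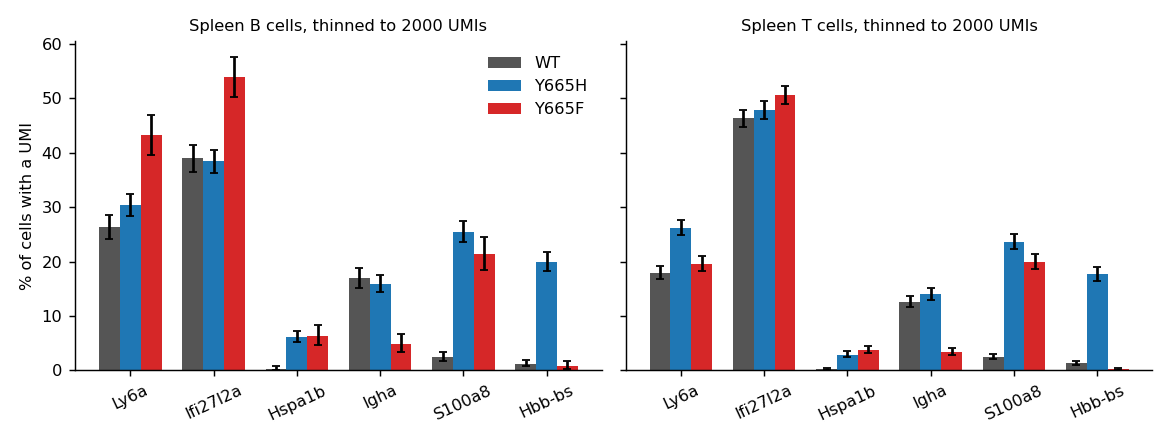
Percent of spleen B cells (left) and T cells (right) with a UMI of 6 genes after thinning each cell to 2000 UMIs, for WT, Y665H and Y665F, with exact 95% binomial intervals. In both cell types Igha is lowest in Y665F and S100a8 and Hbb-bs are highest in Y665H, whereas Ly6a in Y665F is at 43.3% of B cells and 19.6% of T cells.

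Lymph node B cells were the nearest cells with more than 1 library per genotype. They were taken with a looser gate (200 genes, 2 Cd79a UMIs) from 2 WT, 3 heterozygous and 2 homozygous Y665F libraries and held 109 to 1283 cells each. Nothing in the labels says whether these libraries came from separate animals, so p-values measure the spread between libraries. edgeR's quasi-likelihood test with Benjamini-Hochberg adjustment over 8383 genes called 6 genes in homozygotes against WT, 5 higher (0.0596%) and 1 lower (0.0119%), at an adjusted p under 0.05 and over 2-fold. In heterozygotes it called 85, 5 higher (0.0596%) and 80 lower (0.954%). These counts were unstable, at 0 without homozygote replicate 2 and 41 without WT replicate 1 in homozygotes, and at 1 without heterozygote replicate 1 and 162 without WT replicate 1 in heterozygotes, and DESeq2 called 1 in each. Of the 5 genes higher in homozygotes all were immunoglobulin V segments. The 1 lower gene, named after its values were seen, was Basp1, which encodes a membrane-bound signaling protein. It was at 113 and 156 CPM in WT, at 4.55, 17.0 and 22.6 CPM in heterozygotes and at 21.6 and 14.95 CPM in homozygotes, so all Y665F libraries were below both WT libraries. The values of heterozygote 3 and homozygote 1 rest on 1 UMI each. The log2 fold change was -3.10 in homozygotes and -3.91 in heterozygotes, with edgeR adjusted p of 0.00205 and 1.21e-09. In heterozygotes the adjusted p ran up to 0.000505 over the alternatives run, and in homozygotes up to 0.99998 with DESeq2.

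Ly6a in lymph node B cells was at 460 and 258 CPM in the WT libraries, at 664, 499 and 815 CPM in heterozygotes and at 799 and 763 CPM in homozygotes. All 5 Y665F libraries were above both WT libraries. Heterozygote 3 and homozygote 1 were thin, with 44165 and 46290 B cell UMIs in all and medians of 323 and 326 UMIs per cell, against 795 to 2018 in the others. Without both, the log2 fold change was 1.10 in homozygotes and 0.71 in heterozygotes, with edgeR adjusted p of 0.563 and 0.241, where the single homozygote library left is assumed to vary like the other groups. The log2 fold change was 1.05 (SE 0.24) in homozygotes and 0.73 (SE 0.20) in heterozygotes, with edgeR adjusted p of 0.106 and 0.0771, so neither passed the threshold. Over the alternatives the adjusted p ran from 2.88e-06 to 0.99998 in homozygotes and from 2.18e-05 to 0.999985 in heterozygotes, the lowest without WT replicate 1 and the highest with DESeq2. Without WT replicate 1 a single WT library stands for its group and the spread comes from the other groups. Ifi27l2a was at 636 and 219 CPM in WT, at 652, 572 and 702 in heterozygotes and at 454 and 927 in homozygotes, so the groups overlapped (edgeR adjusted p 0.683 in homozygotes and 0.657 in heterozygotes). Tnfrsf13c had log2 fold changes of -0.16 and -0.13 in homozygotes and heterozygotes, and Fcer2a of 0.05 and 0.21, with edgeR adjusted p of 0.825 or more. Cd83, above WT in both spleen mutants, was at 427 and 488 CPM in lymph node WT libraries, at 365, 417 and 340 CPM in heterozygotes and at 410 and 353 CPM in homozygotes, with log2 fold changes of -0.28 and -0.36 in heterozygotes and homozygotes and edgeR adjusted p of 0.687 and 0.868. The spleen differences in Tnfrsf13c, Fcer2a and Cd83 were thus not matched by called differences in lymph node.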

How the data were processed

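Single-cell RNA of spleen and lymph node was analysed from the count matrices deposited by the authors, which hold whole UMI counts per gene and barcode, filtered to cells. The file headers name Cell Ranger 6.0.0 for spleen and 5.0.0 for lymph node, while the submitters' processing notes list Cell Ranger 5.0 and Seurat 4.0. The labels name a 3′ kit and the study's methods a 5′ kit, which could change which end of each gene was read. The genome was GRCm38. Members and gene lists were chosen with earlier results of these data known.

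Gated UMIs were summed per library and given as CPM. Genes were named by size: up to 10 per direction with a mean of at least 10 CPM, a ratio of at least 2 and Poisson intervals apart. Immunoglobulin segments, T cell receptor, mitochondrial, sex-linked and other-cell genes were counted but not named, and genes of the 30 lists could be named as well. Clusters used 2000 variable genes, 30 components, 20 neighbours and Leiden resolution 0.6 (leidenalg 0.10.2). Clusters 8 and 9 were singled out after their values were seen. Doublets were kept, and removal of the top-scoring barcodes was an alternative. Lymph node sums were tested with edgeR 4.0.16 (TMM, all 3 genotypes in 1 fit), with DESeq2 1.42.0 as an alternative, after a test on simulated data. Spleen libraries held 36889328 to 47206322 UMIs. Bone marrow and T cell receptor files were not used here.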

Additional observations from a re-analysis of the deposited data

How the results depend on the processing

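The B cell share kept its order (Y665H, WT, Y665F) in all 7 alternatives run. In WT, Y665H and Y665F it was 25.1%, 30.02% and 16.2% with 1 Cd79a UMI and no Ms4a1 limit, 20.9%, 24.9% and 10.6% at 5% mitochondrial UMIs, and 20.02%, 22.8% and 12.3% after thinning.

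Counts of genes at 2-fold depended on the level filter. For Y665F (main 37) they were 15 with 5 CPM added, 88 at a mean of 5 CPM, 405 with no filter, 68 after thinning and 589 over barcodes free of T, NK and neutrophil UMIs, a set of 97 Y665F cells. For Y665H (main 21) they were 50, 202 and 183 at a mean of 5 CPM, with no filter and over those barcodes. The higher and lower counts for Y665F were 9 and 6 with 5 CPM added, 12 and 13 with TMM, and 11 and 17 with totals lacking immunoglobulin, mitochondrial and ribosomal genes. Over the barcodes free of other-cell UMIs they were 126 and 463, and in Y665H 52 and 131. The Y665H count was 14 without clusters 8 and 9.

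List medians moved by over 0.15 for few lists. In Y665F the B-1 median (main -0.55) was -0.37 without clusters 8 and 9. The plasma cell median (main 0.14) was -0.35 after doublet removal, where the Slpi ratio turned to -0.35. The NK median was -1.28 with 5 CPM added, -0.48 after doublet removal and -0.49 without clusters 8 and 9. The neutrophil median was 2.604 and 2.83 in Y665F with 5 CPM added and after doublet removal, and 2.69, 2.998 and 3.45 in Y665H under those and without clusters 8 and 9. The red cell median was -0.29 in Y665F and 5.60 in Y665H with 5 CPM added, and the Y665H NK median 0.022 after doublet removal.

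The transitional-like share was 13.3%, 12.1% and 11.6% at resolution 1.0 (WT, Y665H, Y665F), the interferon-gene share 2.69%, 3.99% and 7.57%, and the WT transitional-like share 23.2% after doublet removal. Unthinned shares of cells with a UMI were 40.6%, 44.2% and 58.9% for Ly6a, 54.0%, 54.1% and 71.2% for Ifi27l2a, 50.8%, 52.0% and 67.4% for Plac8, 30.4%, 30.1% and 9.32% for Igha, and 73.0%, 70.6% and 64.2% for Fcer2a. For Hspa1b they were 9.70% in Y665H and 9.46% in Y665F.

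Lymph node calls in homozygotes (main 6) were 1 with DESeq2 and 26 with no filter, and in heterozygotes (main 85) 1 and 182. Leaving out 1 library gave 0 to 41 calls in homozygotes, 0 without homozygote replicate 2, and 1 to 162 in heterozygotes, 1 without heterozygote replicate 1 and 162 without WT replicate 1. Without both thin libraries, an alternative added after seeing the data, they were 3 and 63. With the replicate number as a block the counts were 13 and 71, and the Ly6a adjusted p in homozygotes was 0.026. Same-numbered libraries correlated at -0.06 to 0.06 in their deviations, so the numbers were not treated as pairs. With 1 library left out, the log2 fold change of Ifi27l2a ran from -0.19 to 1.84 in homozygotes and from -0.095 to 1.51 in heterozygotes, that of Plac8 in heterozygotes from -0.16 to 0.49, and that of Fcer2a in homozygotes from -0.060 to 0.14. The adjusted p of Ly6a was also under 0.05 with no filter in both groups (0.0021 and 0.0064), and in heterozygotes without either homozygote library (0.0476 and 0.0452). The cause of these shifts was not tested. The single pooled spleen library per genotype limits all spleen values.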
